A study of Homo sapiens with 14 samples.

Results

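The long noncoding RNAs (lncRNAs) MALAT1, NEAT1, GAS5, PVT1, TUG1, SNHG1, MIR31HG, MIR22HG, UCA1 and HOTAIR are among those most often studied in human tumours. They were taken as a list of 10 symbols, with no measured value in the rule, and matched to the Ensembl gene IDs of the count table. All 10 were found among its 61541 gene IDs. Each also passed the filter on low counts that left 19181 genes for testing, UCA1 only through the group in which it was high.

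RNA came from cells labelled BxPC-3, an established human pancreatic cancer cell line, harvested at day 3. The 3 libraries labelled shHDAC5 have the genotype HDAC5 knockdown, made with a short hairpin RNA against HDAC5, a class IIa histone deacetylase. The 3 libraries labelled shControl have the genotype WT and received a control hairpin. Binding of the transcription factor GATA1 was mapped in PANC-1, another pancreatic cancer line, also at day 3. There was 1 peak list for shHDAC5 and 1 for the control, which is titled NC and called shControl here. The number of hairpins, the selection of the RNA (total RNA in the labels) and the origin of the replicates were not stated in the sources used here. The p-values therefore measure the spread between libraries, which may be technical.

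Several measurements went against the labels. HDAC5 averaged 164 ± 4.44 CPM (counts scaled to library size) in the libraries labelled shHDAC5 and 94.9 ± 2.99 CPM in those labelled shControl (SD, n = 3 each), so the libraries labelled as the knockdown held more of the hairpin target. Every direction given here is between libraries as labelled. The RNA libraries held 15935649 to 16889876 counts in the shHDAC5 group and 15179758 to 17854340 in the shControl group, with a count in 33115 to 33632 genes of the shHDAC5 and 25775 to 26078 of the shControl libraries. Of the 10 pancreatic epithelial markers, 9 were tested, 2 rose and 5 fell, where 44.8% of all tested genes rose and 39.9% fell. The summed level of these markers was 1386 to 1453 CPM in shHDAC5 libraries and 1701 to 1737 CPM in shControl libraries. KRT19, a keratin of ductal cells, had 5 counts over the shHDAC5 libraries and 1 over the shControl libraries. CDKN2A and SMAD4, which are known to be deleted in BxPC-3, were read at 13.7 ± 0.648 and 46.8 ± 0.789 CPM in shHDAC5 libraries and at 150 ± 4.78 and 49.6 ± 2.59 CPM in shControl libraries (SD, n = 3 each). Of 15 markers of leukocytes, endothelium, fibroblasts and neuroendocrine cells, 9 were tested, 5 rose and 3 fell, beside the same shares of all tested genes. Their summed level was 122 to 127 CPM in shHDAC5 libraries and 124 to 134 CPM in shControl libraries, with LUM at 0 throughout and PTPRC at 5 counts over the shHDAC5 and 1 over the shControl libraries. Reads of CDKN2A and SMAD4 in both groups go against the line named in the labels, and the identity of the cells was not tested. Whether the differences between the libraries given here contribute to those of the lncRNAs was not tested.

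Long noncoding RNAs are transcribed and often spliced like messenger RNAs but are not known to serve mainly as templates for protein. Some build nuclear bodies: NEAT1 is the scaffold of paraspeckles, and MALAT1 collects in nuclear speckles with splicing factors. Others, such as GAS5 and SNHG1, carry small nucleolar RNAs (snoRNAs) in their introns, carry microRNAs (MIR22HG, MIR31HG), or are read from loci of developmental genes and oncogenes (HOTAIR, PVT1).

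Of the 10 lncRNAs, 3 were higher and 7 were lower in the libraries labelled shHDAC5. In CPM, the 3 libraries of one group lay outside the range of the other for each of them. As shares of total counts, the groups overlapped for PVT1. UCA1 was read in the shHDAC5 libraries alone, HOTAIR fell by 4.93 on the log2 scale, and MIR22HG rose by 1.36. The other members moved by less than 2-fold. The 9 members other than UCA1 passed the quasi-likelihood test of edgeR at a Benjamini-Hochberg adjusted p of 0.05, and the pass of UCA1 is not counted because its high group alone brought it into the test. Of all tested genes 84.7% passed, 44.8% higher and 39.9% lower in the shHDAC5 libraries. For 84.8% of tested genes no library of one group fell within the range of the other, 45% with the shHDAC5 libraries higher and 39.8% with them lower. Among 1694 tested genes that RefSeq classes as lncRNA, 79.9% were called, 48.3% higher and 31.6% lower. The share of members called therefore stands near that background and says nothing particular about them, and the sizes carry the description. The median log2 fold change of the 10 was -0.31, against 0.09 over all tested genes and 0.37 over the RefSeq lncRNAs. Among the 9 members other than UCA1, MIR22HG alone rose and HOTAIR alone fell by 2-fold or more. At an adjusted p under 0.05, 46.5% of all tested genes changed by as much, 26.4% upward and 20.1% downward. Their summed level was 8041 to 8175 CPM in shHDAC5 libraries and 9836 to 10050 CPM in shControl libraries, and NEAT1 and MALAT1 made up most of it.

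**Figure D1:**
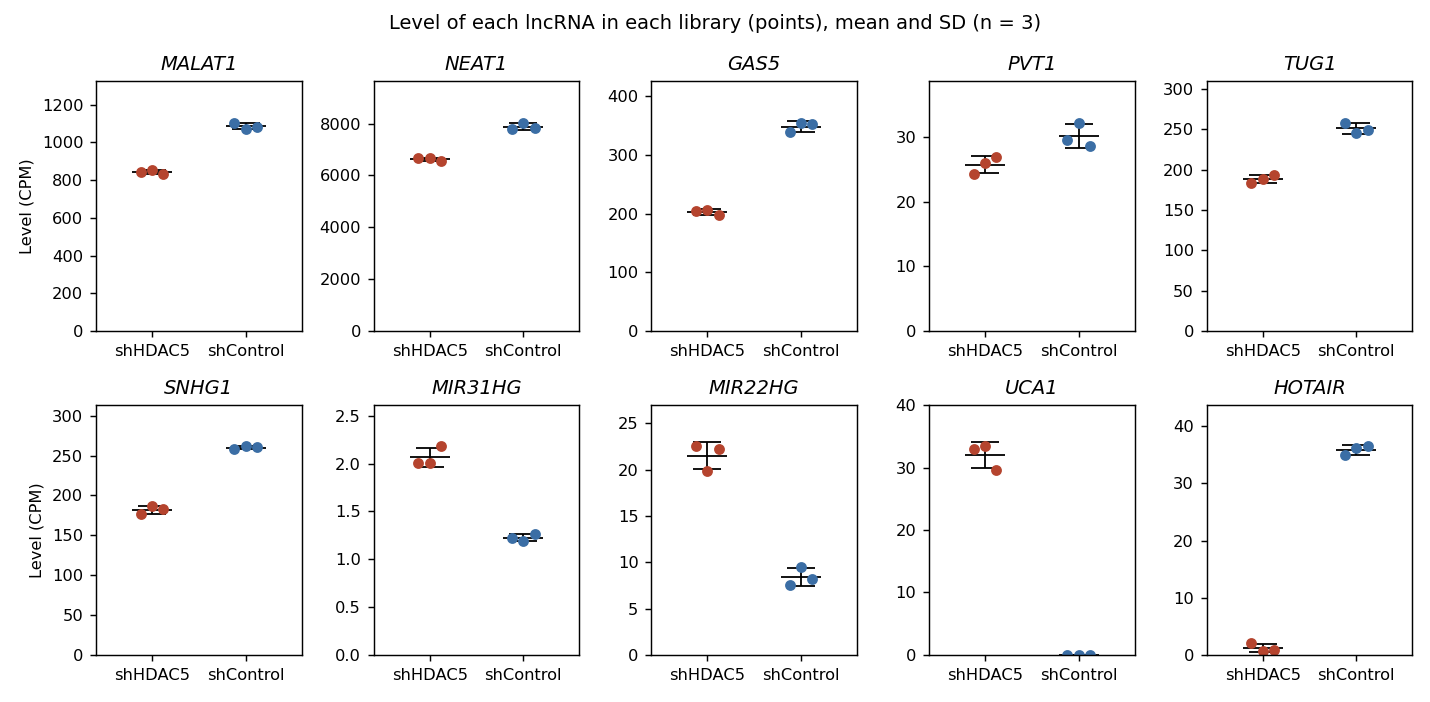
Level of each lncRNA in CPM (vertical axis, linear from 0, its own range in each panel) in the 3 shHDAC5 and the 3 shControl libraries, with points for libraries and bars for the mean and SD. MIR31HG, MIR22HG and UCA1 were higher in every shHDAC5 library and the other 7 were lower, and the groups overlap in no panel.

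Per kilobase of annotated exon, NEAT1 stood highest in both groups, at 291 ± 2.76 CPM per kb in shHDAC5 and 346 ± 5.62 in shControl libraries (SD, n = 3 each). MALAT1 came next, at 95.6 ± 1.29 CPM per kb in shHDAC5 and 123 ± 1.85 in shControl libraries. In the shHDAC5 libraries the order then ran SNHG1 (45.8 ± 1.25), GAS5 (41.1 ± 0.996), TUG1 (18.6 ± 0.449), UCA1 (7.70 ± 0.496), MIR22HG (7.1 ± 0.477), PVT1 (1.02 ± 0.0502), MIR31HG (0.733 ± 0.0356) and HOTAIR (0.453 ± 0.278 CPM per kb). UCA1 overlapped MIR22HG in that order, and MIR31HG overlapped HOTAIR, while no other neighbours did. In the shControl libraries it ran GAS5 (70.6 ± 1.77), SNHG1 (65.4 ± 0.523), TUG1 (24.7 ± 0.623), HOTAIR (13.8 ± 0.318), MIR22HG (2.78 ± 0.321), PVT1 (1.19 ± 0.0733), MIR31HG (0.435 ± 0.0142) and UCA1 at 0, with no overlap between neighbours. GAS5 and SNHG1 thus changed places, and HOTAIR stood in place 10 in the shHDAC5 libraries and in place 6 in the shControl libraries. The order depends on the annotated exon length, 25320 bases for PVT1 and 3032 for MIR22HG. Before division by length PVT1 stood above MIR22HG, at 25.75 against 21.53 CPM in shHDAC5 and 30.12 against 8.435 CPM in shControl libraries.

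NEAT1, the architectural RNA around which paraspeckles form, lies on chromosome 11 from 65422798 to 65445540 (GRCh38). Its level was 6668, 6656 and 6553 CPM in the shHDAC5 libraries and 7805, 8033 and 7820 CPM in the shControl libraries. Every shHDAC5 library was lower, by a small step in a very abundant RNA: NEAT1 took 0.694% to 0.709% of all counts in shHDAC5 and 0.726% to 0.757% in shControl libraries. By count it ranked 4 among all genes in the shHDAC5 libraries and 5 in the shControl libraries. The log2 fold change was -0.25 (SE 0.0194, adjusted p = 6.98e-23 by the quasi-likelihood test of edgeR after Benjamini-Hochberg correction). It was -0.11 under upper-quartile scaling and -0.07 under total counts, where it still passed (adjusted p = 1.45e-08 and 0.000262). NEAT1 is made as a short and a long isoform that start at the same place, and counts per gene do not separate them.

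MALAT1, an RNA of nuclear speckles that interacts with splicing factors, lies on the same arm at 65497738 to 65506516. It stood at 844, 855 and 833 CPM in shHDAC5 libraries, against 1104, 1071 and 1084 CPM in shControl libraries. The shHDAC5 libraries were lower without overlap, at a log2 fold change of -0.36 (SE 0.0229, adjusted p = 4.77e-29, same test). Under upper-quartile scaling MALAT1 stood at -0.22 and under total counts at -0.18, and it passed in both. As both RNAs are counted in the same library, their ratio does not depend on the scaling. It was 7.91, 7.78 and 7.87 NEAT1 counts per MALAT1 count in shHDAC5 libraries and 7.07, 7.498 and 7.22 in shControl libraries. The ratio was higher in 3 of 3 shHDAC5 libraries, with a two-sided exact permutation p = 0.1, the smallest that 3 against 3 allows. FRMD8, the coding gene on the NEAT1 side of the pair, moved the other way. It averaged 72.5 ± 1.84 CPM in shHDAC5 and 62.2 ± 4.64 CPM in shControl libraries (SD, n = 3 each), a log2 fold change of 0.22.

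Most genes for the proteins of these bodies fell. Of 25 genes for paraspeckle proteins, 3 rose, 21 fell and 1 did not pass, at a median log2 fold change of -0.98. HNRNPUL1 averaged 81.2 ± 2.49 CPM in shHDAC5 and 445 ± 10.01 in shControl libraries, and HNRNPK, an RNA-binding protein needed for paraspeckles, averaged 360 ± 4.83 CPM in shHDAC5 and 713 ± 11.1 CPM in shControl libraries (SD, n = 3 each). Of 22 genes for nuclear speckle and SR proteins, the serine-arginine rich splicing factors, 1 rose, 20 fell and 1 did not pass, at a median of -0.76. SRSF1 averaged 20.9 ± 0.246 CPM in shHDAC5 and 91.7 ± 5.04 in shControl libraries, and SRSF3 averaged 43.3 ± 1.86 CPM in shHDAC5 and 175 ± 4.53 CPM in shControl libraries. Both medians lie below the 0.09 of all tested genes, of which 39.9% fell, and the log2 fold changes of NEAT1 and MALAT1 lie between.

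GAS5 and SNHG1 are host genes whose spliced exons are degraded by nonsense-mediated decay while the introns release box C/D snoRNAs, guides for methylation of ribosomal RNA. GAS5, named for its accumulation in growth-arrested cells, lies on chromosome 1 from 173863901 to 173869045. It was read at 204, 207 and 197 CPM in shHDAC5 libraries and at 338, 355 and 352 CPM in shControl libraries. All shHDAC5 libraries were lower, at a log2 fold change of -0.78 (SE 0.0288, adjusted p = 5.04e-48 by the quasi-likelihood test of edgeR after Benjamini-Hochberg correction), which only HOTAIR exceeded among the members that fell. Part of the GAS5 span overlaps ZBTB37, and reads from the overlap cannot be told apart without a strand setting. ZBTB37 averaged 29.5 ± 1.59 CPM in shHDAC5 and 41.6 ± 1.90 in shControl libraries (SD, n = 3 each). ZBTB37 thus fell as well, at a log2 fold change of -0.49.

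SNHG1, at 62851978 to 62855885 on chromosome 11, was read at 177, 187 and 183 CPM in shHDAC5 libraries and at 258, 261 and 261 CPM in shControl libraries. Again no library overlapped, and the log2 fold change was -0.51 (SE 0.0299, adjusted p = 2.11e-31, same test). With total counts it was -0.33 and passed. GAS5 counts per SNHG1 count were 1.154, 1.11 and 1.08 in shHDAC5 libraries and 1.31, 1.36 and 1.35 in shControl libraries. GAS5 was thus lower relative to SNHG1 in 3 of 3 shHDAC5 libraries (two-sided exact permutation p = 0.1, the smallest possible). SLC3A2, the heavy chain of amino acid transporters, lies 224 bases from SNHG1 and averaged 91.9 ± 1.41 CPM in shHDAC5 and 505 ± 9.18 in shControl libraries (SD, n = 3 each). WDR74, a ribosome assembly factor on the other side, averaged 13.9 ± 0.425 CPM in shHDAC5 and 46.0 ± 2.16 CPM in shControl libraries, so both neighbours fell, with log2 fold changes of -2.46 and -1.72 beside -0.51 for SNHG1.

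The promoter windows of GAS5, SNHG1 and MIR22HG are shown because the first pair fell together while the other rose between neighbours that fell. Each runs 5′ to 3′ on the gene's strand from 250 bases before to 50 bases after the RefSeq start (GRCh38.p14), with the 50 transcribed bases in capitals. GAS5 is on the minus strand at chr1:173868996-173869295, SNHG1 on the minus strand at chr11:62855836-62856135 and MIR22HG on the minus strand at chr17:1716161-1716460.
GAS5: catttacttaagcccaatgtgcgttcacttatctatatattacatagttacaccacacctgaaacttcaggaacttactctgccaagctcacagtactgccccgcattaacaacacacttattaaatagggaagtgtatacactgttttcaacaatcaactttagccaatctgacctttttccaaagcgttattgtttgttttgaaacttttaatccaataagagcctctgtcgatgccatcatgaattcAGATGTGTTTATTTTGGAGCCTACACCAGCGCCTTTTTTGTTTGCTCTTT
SNHG1: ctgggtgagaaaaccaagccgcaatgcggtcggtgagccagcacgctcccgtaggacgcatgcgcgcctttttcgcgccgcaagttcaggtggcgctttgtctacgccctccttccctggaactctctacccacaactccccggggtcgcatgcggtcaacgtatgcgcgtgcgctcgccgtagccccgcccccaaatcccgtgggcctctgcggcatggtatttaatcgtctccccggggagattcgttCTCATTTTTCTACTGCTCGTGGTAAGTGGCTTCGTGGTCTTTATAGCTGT
MIR22HG: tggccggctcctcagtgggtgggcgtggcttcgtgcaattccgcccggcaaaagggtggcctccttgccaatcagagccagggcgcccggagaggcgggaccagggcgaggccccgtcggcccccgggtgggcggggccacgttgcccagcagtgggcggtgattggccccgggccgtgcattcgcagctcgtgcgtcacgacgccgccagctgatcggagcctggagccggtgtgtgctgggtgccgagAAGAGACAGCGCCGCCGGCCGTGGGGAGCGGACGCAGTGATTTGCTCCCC
In these windows GC content was 37.7% for GAS5, 60.0% for SNHG1 and 72.3% for MIR22HG, against a median of 58.7% over 35116 windows. The transcribed part of SNHG1 opens with 9 pyrimidines among the first 10 bases, a count of 9 or more that 3.65% of all windows share, while GAS5 has 5 and MIR22HG has 2 (median 5). Pyrimidine-rich starts of this kind are known from RNAs of ribosomal proteins and snoRNA hosts. The GAS5 window belongs to its outermost RefSeq start and lies inside the span of ZBTB37 (173868082 to 173903547). Whether GAS5 RNA began there or further inside the gene was not tested, so its window values may not describe its main start. The letters AGATAA or their reverse complement TTATCT, a form of the GATA motif, occur in 10.3% of all windows, and TGATAA or TTATCA in 7.53%. Of 6 members with a window in the table, GAS5 alone held either, with TTATCT 222 bases before its start. No listed GATA1 peak overlapped the 3 windows printed.

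Other hosts moved in both directions. Of 25 further snoRNA host lncRNAs, 24 were tested, 8 rose, 14 fell and 2 did not pass, at a median log2 fold change of -0.49. For this list and the next 2, the shares over all tested genes are 44.8% higher and 39.9% lower. SNHG29 averaged 319 ± 5.89 CPM in shHDAC5 and 748 ± 20.04 in shControl libraries, and SNHG3 averaged 51.1 ± 3.55 CPM in shHDAC5 and 129 ± 4.85 CPM in shControl libraries (SD, n = 3 each). SNHG32 and SNHG4 had log2 fold changes of -1.37 and -1.58. Of 17 nonsense-mediated decay factors, 7 rose, 9 fell and 1 did not pass, at a median of -0.18. SMG1, the kinase that starts the decay step, averaged 612 ± 12.2 CPM in shHDAC5 and 310 ± 15.3 in shControl libraries, and the helicase EIF4A3 averaged 350 ± 1.78 CPM in shHDAC5 and 208 ± 2.47 CPM in shControl libraries. Of 76 ribosomal protein mRNAs, 12 rose, 57 fell and 7 did not pass, at a median of -0.32, and RPL13A averaged 919 ± 9.99 CPM in shHDAC5 and 1943 ± 48.9 in shControl libraries. Under upper-quartile scaling 20 of the ribosomal mRNAs rose, and under scaling by total counts 23 did. Without shHDAC5 replicate 2, 5 rather than 8 snoRNA hosts rose, and without shControl replicate 1, 7 ribosomal mRNAs rose.

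TUG1, a nuclear RNA first found as a gene raised by taurine, lies on chromosome 22 from 30969265 to 30979395, and RefSeq classes the locus as protein-coding. It was read at 184, 188 and 193 CPM in shHDAC5 libraries and at 258, 246 and 249 CPM in shControl libraries. The shHDAC5 libraries were lower without overlap, at a log2 fold change of -0.41 (SE 0.0301, adjusted p = 1.49e-24 by the quasi-likelihood test of edgeR after Benjamini-Hochberg correction). Upper-quartile scaling gave -0.27 and total counts -0.23 for TUG1, which passed in both. MORC2, a chromatin-silencing ATPase 491 bases away, rose to 95.7 ± 3.59 CPM in shHDAC5 libraries, against 75.3 ± 0.515 in shControl libraries (SD, n = 3 each). SMTN, a smooth muscle actin-binding protein on the other side, rose as well, to 80.5 ± 4.64 CPM in shHDAC5 libraries against 47.2 ± 0.931 in shControl libraries. The 2 neighbours therefore moved against TUG1, by 0.35 and 0.77 on the log2 scale.

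PVT1, which lies next to MYC and is often gained with it in tumours, spans 127794524 to 128101256 on chromosome 8. It had 24.4, 26.1 and 26.8 CPM in shHDAC5 libraries and 29.5, 32.2 and 28.7 CPM in shControl libraries. In CPM the groups came close but did not overlap, and the log2 fold change was -0.22 (SE 0.0698, adjusted p = 0.00244, same test). As a share of total counts PVT1 overlapped, with 0.00259% to 0.00284% in shHDAC5 and 0.00266% to 0.00304% in shControl libraries. Under upper-quartile scaling the value was -0.08 (adjusted p = 0.263) and under total counts -0.04 (adjusted p = 0.603), so the call rests on the scaling. MYC, 51573 bases away, averaged 34.2 ± 1.44 CPM in shHDAC5 and 558 ± 5.67 in shControl libraries (SD, n = 3 each), a log2 fold change of -4.03. In counts, PVT1 stood at 0.741, 0.763 and 0.751 of MYC in shHDAC5 libraries, against 0.0525, 0.0584 and 0.0511 in shControl libraries (two-sided exact permutation p = 0.1, the smallest possible). PVT1 and MYC thus differed greatly in the size of their change. GSDMC, the next coding gene on the far side at 1604179 bases, had 16 counts over the shHDAC5 libraries and 114 over the shControl libraries.

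**Figure D2:**
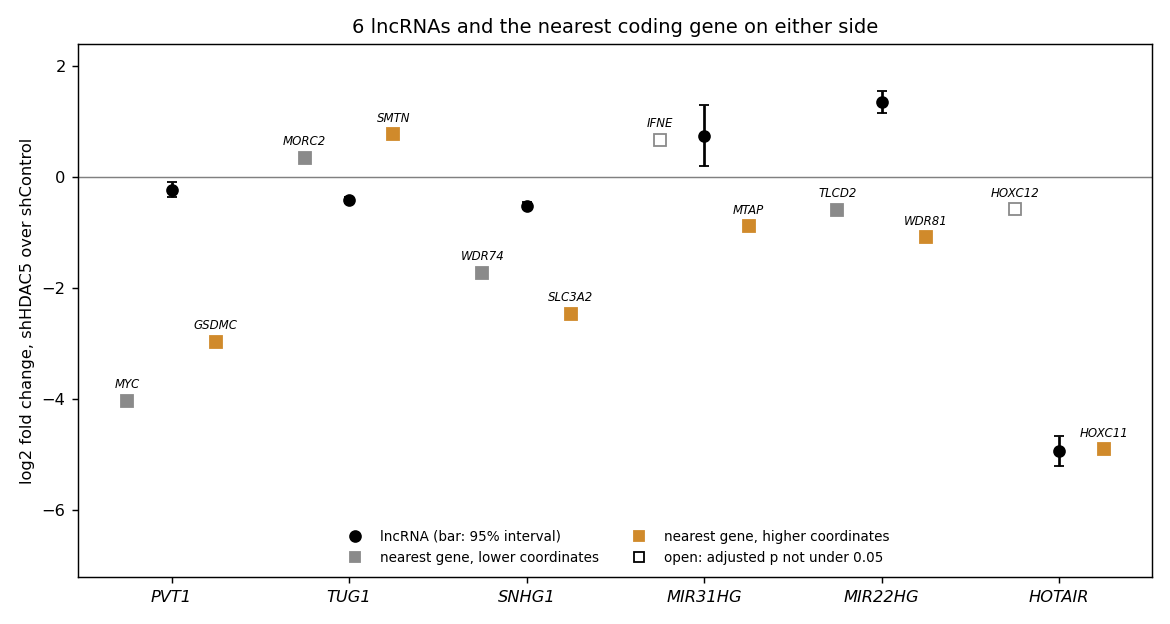
Log2 fold change, shHDAC5 over shControl, of 6 lncRNAs (circles, bars for the 95% interval) and of the nearest coding gene on either side (squares, open where the adjusted p was not under 0.05). MYC at -4.03 and SLC3A2 at -2.46 lie far below PVT1 and SNHG1, and the neighbours of MIR22HG lie below 0 while MIR22HG lies at 1.36.

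**Figure D3:**
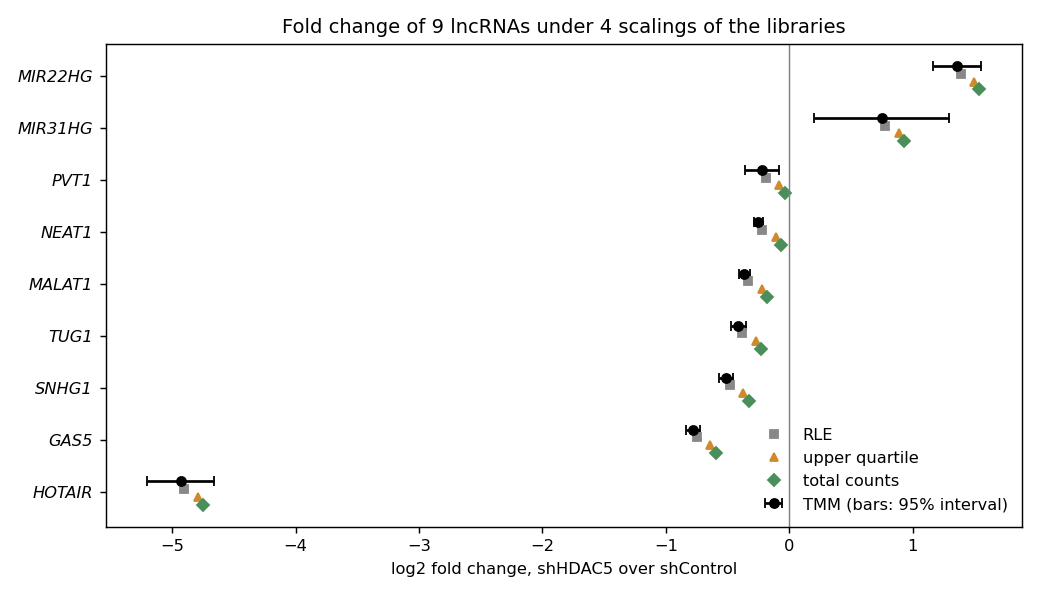
Log2 fold change of 9 lncRNAs, shHDAC5 over shControl, under 4 scalings of the libraries, with the 95% interval for trimmed mean of M-values (TMM) scaling. Other scalings shift all lncRNAs together to higher values; PVT1 ends near 0 under total counts, at -0.04, and no lncRNA crosses 0.

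MIR22HG and MIR31HG are processed for the microRNAs miR-22 and miR-31, and their mature sequences are shown because these are the known products of the host genes. Each is printed 5′ to 3′ with its seed, bases 2 to 8, in capitals, as RefSeq gives it on the minus strand of GRCh38.p14. The miR-22 arms lie at chr17:1713914-1713935 (3p) and chr17:1713952-1713973 (5p), and miR-31-5p lies at chr9:21512158-21512178.
hsa-miR-22-3p: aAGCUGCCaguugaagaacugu
hsa-miR-22-5p: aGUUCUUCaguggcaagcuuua
hsa-miR-31-5p: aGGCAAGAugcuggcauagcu
No seed is shared between them. The values below are those of the host transcripts and not of these microRNAs: the rows for MIR22 and MIR31 hold 0 counts in all 6 libraries. Across all members, 29 small RNA genes lie inside the spans, 16 have a row in the table, and these hold 4 counts over the 6 libraries.

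MIR22HG, at 1711504 to 1716210 on chromosome 17, is known as a stress-responsive transcript. Its level was 22.5, 19.9 and 22.2 CPM in shHDAC5 libraries and 7.59, 9.50 and 8.21 CPM in shControl libraries. Every shHDAC5 library was higher, 2.55-fold by the means, at a log2 fold change of 1.36 (SE 0.0996, adjusted p = 2.56e-24 by the quasi-likelihood test of edgeR after Benjamini-Hochberg correction). WDR81, an endosomal protein 313 bases away, averaged 14.8 ± 1.09 CPM in shHDAC5 and 31.5 ± 2.23 in shControl libraries (SD, n = 3 each). TLCD2, 1127 bases away on the other side, averaged 32.5 ± 0.805 CPM in shHDAC5 and 48.7 ± 2.73 CPM in shControl libraries. MIR22HG thus rose between 2 coding genes that fell, with log2 fold changes of -1.08 and -0.58.

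MIR31HG lies on chromosome 9 from 21454268 to 21559798, in the segment that holds CDKN2A and the interferon genes. It was near the low end of detection, with 34, 35 and 39 counts in shHDAC5 libraries and 19, 17 and 21 in shControl libraries, or 2.01, 2.00 and 2.18 CPM in shHDAC5 against 1.22, 1.19 and 1.27 CPM in shControl libraries. The groups did not overlap, and the log2 fold change was 0.75 (SE 0.280, adjusted p = 0.0111, same test), which misses a threshold of 0.01. IFNE, an interferon of epithelia whose gene lies inside the MIR31HG span, had 54 counts over the shHDAC5 and 30 over the shControl libraries and did not pass (log2 fold change 0.67, adjusted p = 0.0874). It passed under upper-quartile scaling (0.81, adjusted p = 0.0385) and under total counts (0.85, adjusted p = 0.0292), and its reads may be shared with MIR31HG. MTAP, the methionine salvage enzyme 242838 bases away, averaged 38.7 ± 3.22 CPM in shHDAC5 and 71.3 ± 4.09 in shControl libraries (SD, n = 3 each). Among the 7 genes of this segment that were tested, CDKN2B, DMRTA1 and FOCAD rose, MTAP, CDKN2A and KLHL9 fell, and IFNE did not pass. The shares over all tested genes were 44.8% higher and 39.9% lower.

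Of 21 other microRNA host lncRNAs, 14 were tested, 4 rose, 9 fell and 1 did not pass, at a median log2 fold change of -1.08. Among all tested genes 44.8% rose and 39.9% fell. MIR100HG averaged 35.7 ± 2.02 CPM in shHDAC5 and 11.8 ± 1.07 in shControl libraries, and MIR4435-2HG averaged 46.9 ± 1.38 CPM in shHDAC5 and 19.8 ± 1.84 CPM in shControl libraries (SD, n = 3 each). MIR193BHG averaged 8.23 ± 1.35 CPM in shHDAC5 and 32.9 ± 2.42 in shControl libraries. MIR34AHG, host of a p53-induced microRNA, averaged 6.42 ± 0.727 CPM in shHDAC5 and 17.5 ± 0.994 CPM in shControl libraries.

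UCA1, named for urothelial carcinoma and studied there in drug resistance, lies on chromosome 19 from 15828947 to 15836321. It had 558, 583 and 530 counts in shHDAC5 libraries and 0, 0 and 0 in shControl libraries, that is 33.0, 33.4 and 29.6 CPM in shHDAC5 against 0 CPM in shControl libraries. The gene was at least 495-fold higher in the shHDAC5 libraries, taking 3 counts over the shControl group as the floor. Its test is not given as support, since the gene passed the filter only through its high group. A mean over cells cannot tell fewer expressing cells from less RNA per cell, here or for any other member. CYP4F2, a fatty acid omega-hydroxylase and the nearest coding gene toward higher coordinates, lies 41702 bases away and had 7839 counts over the shHDAC5 libraries and 0 over the shControl libraries, at least 2321-fold higher. OR10H1, an olfactory receptor 13283 bases away on the other side, had 1 count in all.

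Around UCA1, 13 neighbouring genes were listed, of which 9 were tested, 6 rose, 1 fell and 2 did not pass. The 6 that rose are all CYP4F enzymes, whose genes are close relatives and may share reads. Over all tested genes, 44.8% rose, a share that the 6 cannot be set against, because most of them entered the test only through their high group. CYP4F12 averaged 51.2 ± 1.55 CPM in shHDAC5 and 0.351 ± 0.126 in shControl libraries (SD, n = 3 each). CYP4F8, CYP4F11 and CYP4F22 had no count in any shControl library and were at least 84.7-fold, 14.2-fold and 25.2-fold higher. Like UCA1, CYP4F2 and CYP4F12 they entered the test only through their high group. Their calls and those of CYP4F2 and CYP4F12 are therefore not given as support. TPM4, a tropomyosin 231217 bases from UCA1, averaged 349 ± 9.63 CPM in shHDAC5 and 614 ± 10.5 in shControl libraries and fell, while RAB8A and HSH2D beyond it did not pass (log2 fold changes of -0.06 and 0.11, adjusted p = 0.451 and 0.658).

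HOTAIR, a transcript of the HOXC cluster studied for its binding to Polycomb repressive complex 2 (PRC2), lies on chromosome 12 from 53962312 to 53974954. It had 34, 12 and 15 counts in shHDAC5 libraries and 542, 517 and 604 in shControl libraries, or 2.01, 0.687 and 0.839 CPM in shHDAC5 against 34.9, 36.1 and 36.5 CPM in shControl libraries. All shHDAC5 libraries were far lower, and replicate 1 was the highest of them. The mean in shControl libraries was 30.4 times that in shHDAC5 libraries, and the log2 fold change was -4.93 (SE 0.137, adjusted p = 3.06e-59 by the quasi-likelihood test of edgeR after Benjamini-Hochberg correction). Without shHDAC5 replicate 1 it was -5.55. HOXC11 overlaps HOTAIR by 1829 bases and averaged 1.53 ± 0.211 CPM in shHDAC5 and 46.0 ± 0.816 in shControl libraries (SD, n = 3 each), a log2 fold change of -4.90. Without a strand setting, reads in the overlap cannot be told apart.

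The HOXC cluster around HOTAIR fell almost as a block. Of its 13 other listed genes, 12 were tested, 10 fell, 1 rose and 1 did not pass, at a median log2 fold change of -3.04. Among all tested genes 39.9% fell, and the median was 0.09. HOXC10, which patterns the lumbar region in mouse embryos, averaged 27.6 ± 2.05 CPM in shHDAC5 and 103 ± 1.48 in shControl libraries. HOXC9 averaged 1.21 ± 0.370 CPM in shHDAC5 and 16.7 ± 0.331 CPM in shControl libraries, and HOXC6 averaged 2.28 ± 0.396 CPM in shHDAC5 and 19.4 ± 1.51 CPM in shControl libraries (SD, n = 3 each). The antisense transcripts HOXC-AS2 and HOXC-AS3 fell as well, with log2 fold changes of -3.88 and -4.42. HOXC13, 15768 bases from HOTAIR at the end of the cluster, rose instead, to 43.9 ± 1.54 CPM in shHDAC5 libraries against 34.8 ± 0.652 in shControl libraries, and HOXC12, between them, had 27 counts over the shHDAC5 and 36 over the shControl libraries and did not pass (adjusted p = 0.185). HOXC4, HOXC5 and HOXC6 begin at the same coordinate in RefSeq, so their reads may be split.

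**Figure D4:**
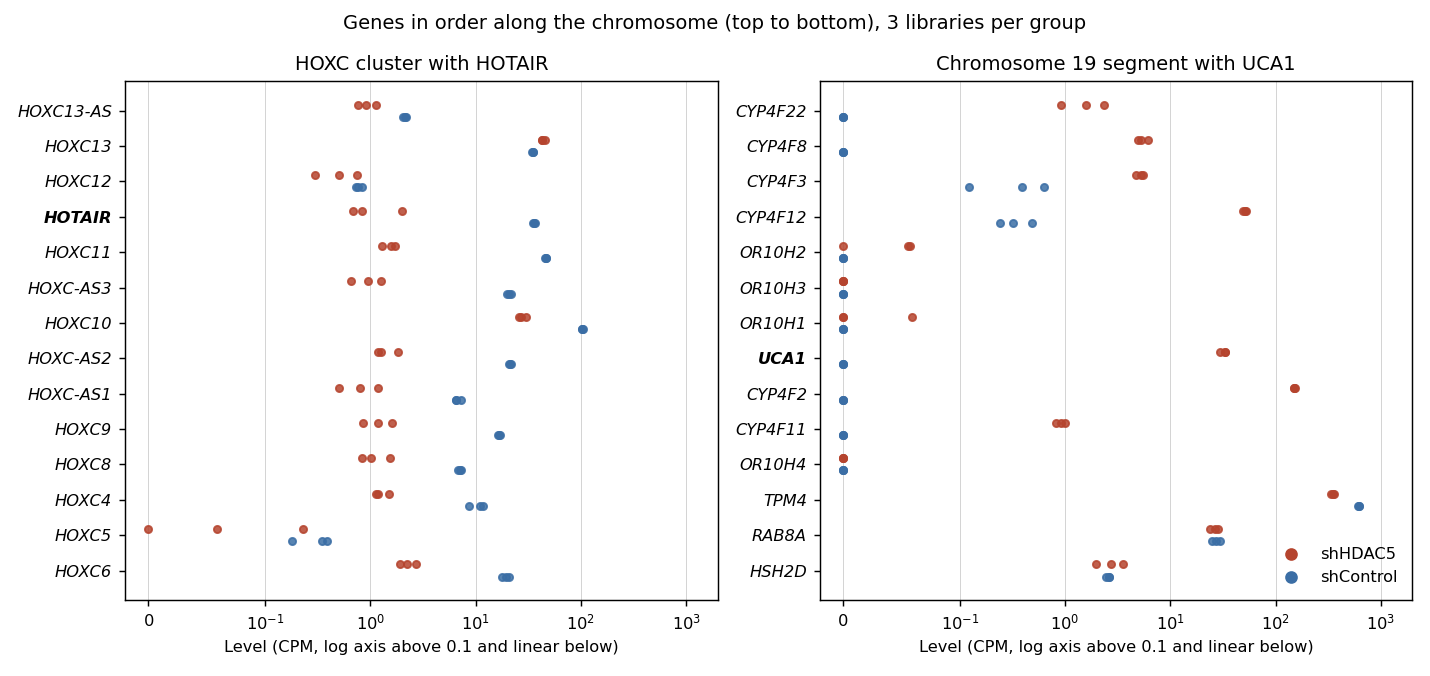
Level in CPM (horizontal axis, logarithmic above 0.1 and linear below) of the genes around HOTAIR and UCA1, in order along the chromosome from top to bottom, with 1 point per library and shHDAC5 above shControl in each row. The shHDAC5 points lie to the left of the shControl points for most HOXC genes, to the right for HOXC13, and overlap them for HOXC12 and HOXC5, and the CYP4F genes and UCA1 lie at or near 0 in shControl libraries.

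The partners named for HOTAIR were measured as well. Of 13 genes of PRC2 and the LSD1 complex, 4 rose, 8 fell and 1 did not pass, at a median log2 fold change of -0.22. The share of all tested genes that passed was 84.7%, with 44.8% higher and 39.9% lower. PHF19, an accessory subunit of PRC2, averaged 17.8 ± 0.668 CPM in shHDAC5 and 121 ± 0.749 in shControl libraries, and RBBP4, a histone-binding subunit, averaged 59.5 ± 1.28 CPM in shHDAC5 and 206 ± 1.32 CPM in shControl libraries (SD, n = 3 each). EZH1, a catalytic subunit, averaged 94.6 ± 3.74 CPM in shHDAC5 and 42.4 ± 1.10 in shControl libraries, and JARID2, which helps to recruit the complex, averaged 114 ± 3.34 CPM in shHDAC5 and 52.0 ± 3.69 CPM in shControl libraries. Under scaling by total counts 6 genes of this list rose and 5 fell, so its balance depends on the scaling.

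Among 42 other cancer-linked lncRNAs, 39 were in the table and 29 were tested. Of the tested, 8 rose, 17 fell and 4 did not pass, at a median log2 fold change of -0.17. Over all tested genes 84.7% passed, 44.8% higher and 39.9% lower. The gene ID matched to HULC, known from liver cancer, averaged 36.0 ± 1.71 CPM in shHDAC5 and 0.730 ± 0.404 in shControl libraries (SD, n = 3 each). Its annotated exons cover 48395 bases, far more than the RefSeq span of HULC (8652269 to 8653856), so its reads may lie outside HULC. With 9, 17 and 7 counts in shControl libraries it passed the filter only through its high group, and its call is not given as support. FENDRR, a transcript beside FOXF1, averaged 0.627 ± 0.213 CPM in shHDAC5 and 38.6 ± 1.10 CPM in shControl libraries, and FIRRE, an X-linked nuclear RNA, averaged 17.5 ± 1.00 CPM in shHDAC5 and 71.3 ± 0.309 CPM in shControl libraries. OIP5-AS1 fell by 1.44 on the log2 scale. Under scaling by total counts, 13 of the 29 rose.

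**Figure D5:**
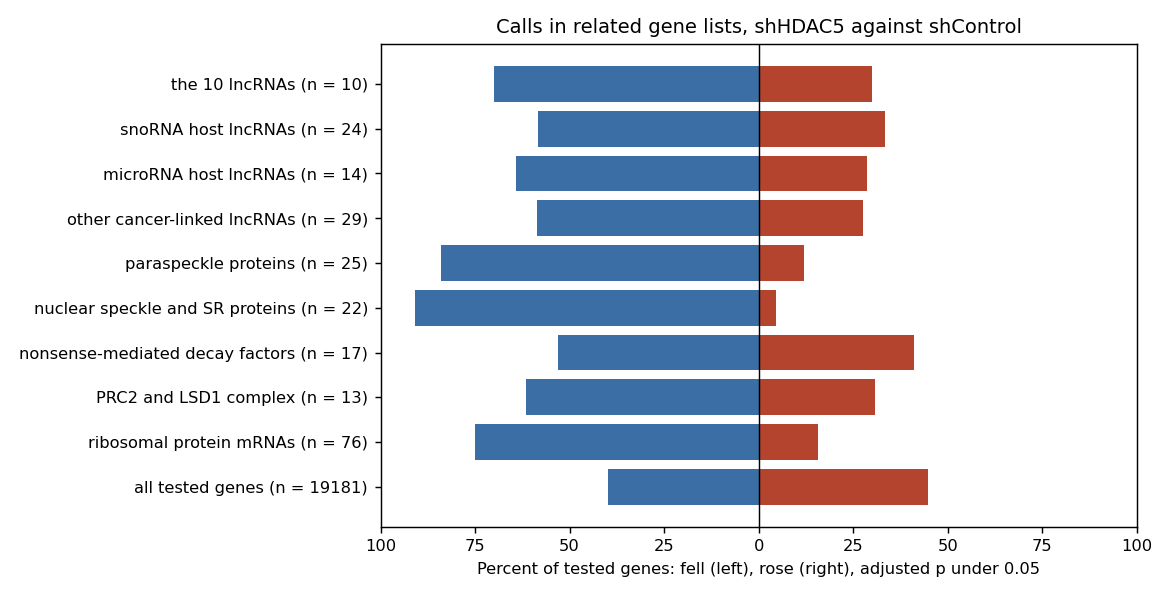
Percent of tested genes in each list that fell (bars to the left) and rose (bars to the right) in shHDAC5 against shControl libraries at an adjusted p under 0.05, with the number tested in brackets. Of the genes for paraspeckle proteins 21 of 25 fell, and for nuclear speckle and SR proteins 20 of 22, beside 39.9% of all tested genes.

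For members other than MALAT1, the tested gene with the nearest pattern was found by the Euclidean distance between centred log2 CPM over the 6 libraries. The nearest were PIGT for NEAT1 (distance 0.0294), CPSF1 for TUG1 (0.034), LINC03061 for SNHG1 (0.0392), TEPSIN for MIR31HG (0.0456) and SLC44A1 for GAS5 (0.047). MRPS5 stood nearest to PVT1 (0.0796), EMC3 to MIR22HG (0.101), PCDH9 to UCA1 (0.196) and GABPB1-IT1 to HOTAIR (0.576). These distances span 2 groups of 3 libraries, so genes with a like difference between the groups lie near each other. Of these, HOTAIR had the least close match.

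GATA1 peaks were compared with the loci in PANC-1 only as lists, since each condition has 1 list and no test of a difference can be made. The fold enrichment and q-values are the authors' own. The name of every peak in the list called shControl here, titled NC by the authors, contains SAHA. The name of every peak in the list labelled shHDAC5 contains NC, the title of the control. The names thus go against the labels. Within 5 kb of the spans, the list labelled shHDAC5 had 48 peaks at 9 of 10 members (90%), and the list labelled shControl had 45 at 6 of 10 (60%). Among 24353 RefSeq lncRNA and coding genes the share was 86.6% in the list labelled shHDAC5 and 76.5% in that labelled shControl, so most genes have such a peak. Of the 48 peaks, 2 overlapped the other list.

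Peak counts varied with the length of the locus and with the list. PVT1 had 30 peaks in the list labelled shHDAC5 and 23 in that labelled shControl. In the same order of lists MIR31HG had 7 and 1, UCA1 had 3 and 0, and MALAT1 had none in either. NEAT1 had 1 peak in the list labelled shHDAC5, or 30.5 per Mb beside 80.7 per Mb over the whole list, and 11 in the list labelled shControl, or 336 per Mb beside 39.2. HOTAIR had 1 peak, or 44.2 per Mb, in the list labelled shHDAC5 and 7, or 309 per Mb, in the list labelled shControl. At an authors' q of at most 0.05, 1 of the 48 peaks was left, inside PVT1 at chr8:128048984-128049727 with a fold enrichment of 4.39. In the list labelled shControl 3 were left, inside HOTAIR at chr12:53969809-53970235 (fold 4.64), beside MIR22HG at chr17:1709929-1710499 (fold 4.21) and beside the start of PVT1 at chr8:127794060-127794411 (fold 4.16). None of the NEAT1 peaks reached that threshold. Over the whole lists, 0.441% of 249675 peaks in the list labelled shHDAC5 and 5.18% of 121464 in that labelled shControl reached it. The median fold enrichment was 2.33 in the list labelled shHDAC5 and 2.73 in that labelled shControl.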

How the data were processed

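The authors deposited 1 table of whole-number read counts per Ensembl gene for the 6 RNA libraries, not normalized, and 2 GATA1 peak lists in which each peak has a fold enrichment (a ratio) and a −log10 q. Per the submitters' processing notes, which state no roles, the build was hg38 and the tools included MACS2 2.2.7.1 and deepTools 3.5.0 as well as featureCounts 2.0.1 with fastp 0.23.2 and FastQC 0.11.9. The aligner, the annotation release, the strand setting and whether immunoprecipitations were pooled were not stated in the sources used here.

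The members and lists were chosen with earlier results of these data known. Symbols were found for 61369 of 61541 gene IDs. Counts were tested in R 4.3.3 with edgeR 4.0.16 (filterByExpr by group, TMM, quasi-likelihood test on group alone, Benjamini-Hochberg adjustment over 19181 genes, threshold 0.05). CPM use TMM-scaled library sizes, and CPM per kb divide by the exon length in the count table. A fold against a group without counts uses 3 counts over the group. Counting error alone underlies that floor. Replicates of a group differed by more than sampling noise (chi-square per degree of freedom 1.57 to 2.07).

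Gene coordinates, promoter windows and microRNAs came from RefSeq GRCh38.p14 tables. Peaks were joined to gene spans widened by 5 kb on each side. Named genes are the 10 members, HDAC5, the called genes of each list with the lowest adjusted p (4 at most), the nearest coding gene on each side, the nearest pattern by distance, and any gene of the locus, marker and deletion lists. Alternatives were DESeq2 1.42.0, its size factors, upper-quartile and total-count scaling, no filter, a mean CPM of at least 1, a threshold of 0.01, leaving out each library, a block for the replicate number, and peak thresholds. No input libraries were analysed here. Some genes that meet the rule for named genes do not appear in this account.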

Additional observations from a re-analysis of the deposited data

How the results depend on the processing

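All 10 members kept their direction under every scaling, filter, test and left-out library that was run, and PVT1 and MIR31HG alone lost a call, as given above. The median log2 fold change of all tested genes was 0.09 under TMM, 0.12 under DESeq2's size factors, 0.23 under upper-quartile and 0.27 under total-count scaling. Relative to that median, the members' log2 fold changes were -0.46 for MALAT1, -0.34 for NEAT1, -0.87 for GAS5, -0.31 for PVT1, -0.50 for TUG1, -0.60 for SNHG1, 0.66 for MIR31HG, 1.26 for MIR22HG and -5.02 for HOTAIR. Leaving out 1 library at a time gave -5.55 to -4.67 for HOTAIR, -0.28 to -0.19 for PVT1, 0.69 to 0.76 for MIR31HG, 5 to 7 snoRNA hosts that rose and 7 to 12 ribosomal protein mRNAs that rose. Under total counts, 13 other cancer-linked lncRNAs, 3 speckle and SR genes and 23 ribosomal mRNAs rose. With the same scaling 6 PRC2 and LSD1 genes rose and 5 fell. Upper-quartile scaling gave 2 speckle and SR genes and 20 ribosomal mRNAs that rose, and DESeq2's size factors gave 2 speckle and SR genes. A mean CPM of at least 1 gave 2 speckle and SR genes and 3 markers of other cells that rose, and no filter gave 7 ribosomal mRNAs. The whole lists differed in enrichment, with a median fold of 2.33 in that labelled shHDAC5 and 2.73 in that labelled shControl. Peaks at the members numbered 1 in the list labelled shHDAC5 and 3 in that labelled shControl at a q of at most 0.05. At a fold of at least 3 they numbered 3 in the list labelled shHDAC5 and 24 in that labelled shControl. The cause of these shifts was not tested. Same-numbered libraries did not deviate together (correlations of -0.0126, 0.00258 and 0.00593), and the replicate block changed no call among 27 single genes. The block left 3 members that rose, among them UCA1, whose call is not counted, and 7 that fell. The depth gave MIR31HG 17 to 39 counts per library, which limits its precision.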
